A study of Mus musculus with 8 samples.

Results

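Smooth muscle actin and its contractile partners were examined in primary mouse kidney tubular epithelial cells, the cells that line the nephron's tubules. The genes were the 10 rows of the deposited expression table, of 14145 in all, whose symbol is Acta2, Tagln, Tagln2, Myl9, Cnn1, Cnn2, Tpm1, Tpm2, Actg2 or Cald1, and all 10 were present. RNA was sequenced from 4 libraries of WT cells, isolated from Aldh2Ctrl mice and called control here, and from 4 libraries of cells isolated from Aldh2TEC-KO mice, called knockout here. Aldh2 encodes the mitochondrial aldehyde dehydrogenase that oxidises acetaldehyde, and by its name the knockout removes it in tubular epithelial cells. All cells were grown in serum-containing medium and were not treated. Strain, age, the driver of the deletion, the time in culture and whether each library came from a separate mouse were points not given in the sources used here, so the p-values measure only the spread between these libraries.

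Actin filaments built from smooth muscle alpha actin slide against myosin II when the myosin light chain is phosphorylated, and tropomyosin, calponin and caldesmon sit on the filament and set how readily myosin engages it. Many of these genes are textbook targets of serum response factor (SRF), which binds a DNA element called the CArG box and is switched on by its cofactors of the myocardin family when free actin monomers run low. In the intact kidney Acta2 marks vascular smooth muscle, pericytes and the myofibroblasts of scarring tissue, and epithelial cells placed in culture can also come to express it. Tagln2, Cnn2 and Cald1 are the more widely expressed members and are found in many cells that are not muscle.

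The CArG boxes near the start of Acta2, Myl9 and Cnn2 are shown because Acta2 and Myl9 had the largest group differences below and Cnn2 carried an exact match. RefSeq promoter windows on GRCm38.p6, from 250 bases before to 50 bases after each gene's start, were found for 8 of the 10 genes (all but Tagln and Actg2, in 9 windows, since Cald1 has a pair of starts). The box is a pair of C, a run of 6 A or T and a pair of G, and as this pattern is its own reverse complement a match counts on both strands. Each sequence is written 5′ to 3′ on the gene's strand, and the capitals mark the matches.
Acta2 (chr19:34255378-34255477, minus strand, from 104 to 5 bases before the start): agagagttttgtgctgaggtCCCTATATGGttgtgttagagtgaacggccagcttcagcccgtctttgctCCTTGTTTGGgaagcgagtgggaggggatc
Myl9 (chr2:156775283-156775394, plus strand, from 181 to 70 bases before the start): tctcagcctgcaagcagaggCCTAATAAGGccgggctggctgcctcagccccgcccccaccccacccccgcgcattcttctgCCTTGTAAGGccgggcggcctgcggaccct
Cnn2 (chr10:79988524-79988573, plus strand, from 76 to 27 bases before the start): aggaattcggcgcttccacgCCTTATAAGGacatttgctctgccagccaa

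Acta2 held 2 boxes that each differed from the pattern at 1 position, starting 84 and 34 bases before the start. Myl9 held an exact box 161 bases and a box with 1 difference 99 bases before the start, and Cnn2 an exact box 56 bases before the start. Tpm1 held 2 boxes with 1 difference, at 221 and 80 bases, and Cald1 held 1 in the window of its first start, at 203 bases. Distances are to the RefSeq start of each window, which can differ from the bounds of the gene given below. The Tpm1 box at 80 bases (67049284 to 67049293) lies inside those bounds. The RefSeq starts of Tpm2 and Tagln2 also lie inside their genes, and that of Acta2 lies outside. No match was found in the windows of Cnn1, Tpm2 and Tagln2 or in the second window of Cald1. Among all 32851 RefSeq windows of this length, 1.63% held an exact box and 21.1% a box with at most 1 difference, against 2 and 5 of the 9 windows here. These matches describe sequence, and binding was not measured.

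The libraries held 17050000 to 17760000 reads or fragments in the controls and 17890000 to 18760000 in the knockouts, recovered from the FPKM, the authors' measure of level per length of gene and per depth of library. No pair of libraries within a group looked like a single library sequenced again (mean chi-square per gene between 12 and 337.5 over 12 pairs). Aldh2 lay between 23.69 and 31.08 FPKM in controls and between 0.88 and 1.64 FPKM in knockouts, as labelled. Xist and Y-linked transcripts read as female in knockout 1 and 2 and as male in the other 6 libraries. Control 4 stood apart for the contractile genes: it was the lowest of the 8 libraries for 9 of the 10. The log2 difference of each of the 10 genes is therefore also given without it, while shares, related genes and markers are given with it.

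Every one of the 10 genes had a higher mean log2 level in the knockouts, but none passed the test over all genes, and for none did the groups separate. Without control 4, 8 of the 10 kept that direction. In bulk RNA, more or fewer cells of a type and more or less RNA per cell cannot be told apart. Levels were compared as log2(FPKM + 1) with limma on all 14145 genes, with Benjamini-Hochberg adjustment and a threshold of 0.05. On that scale 44.5% of all genes were higher in the knockouts, and the median difference was 0.75 for the 10 genes and -0.06 for all genes. At the adjusted threshold 0 of the 10 passed, against 0.0778% of all genes, and 3 of the 10 (Cnn1, Myl9 and Acta2) had an unadjusted limma p below 0.05, against 19.2% of all genes and 7.58% counted in the higher direction alone. Groups did not overlap for 0 of the 10, against 11.6% of all genes. With a sex covariate 1 of the 10 passed the adjusted threshold, beside 34.2% of all genes, and in limma-voom with sample weights on recovered reads 3 passed, beside 53.1%. The genes were chosen by family with the levels and group differences of these libraries already known, so the counts describe them and are no independent evidence of a direction.

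**Figure D1:**
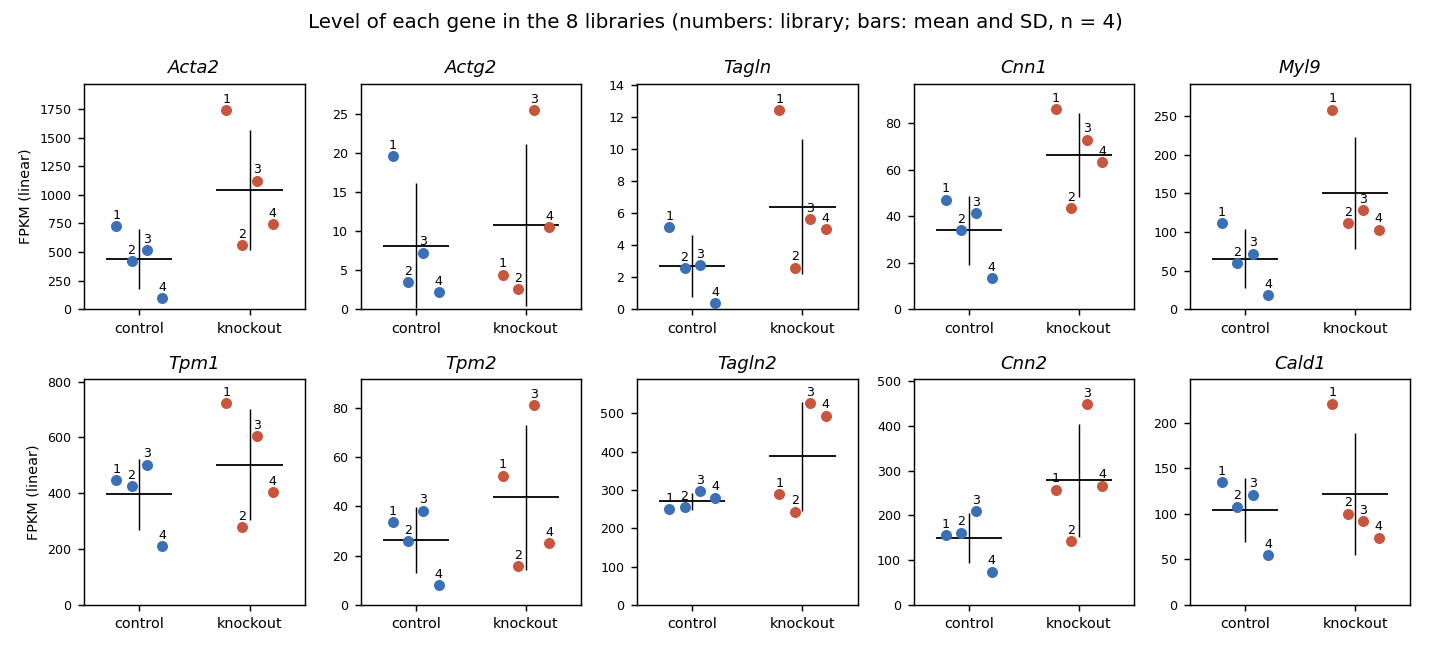
FPKM (linear axis from 0) of each of the 10 genes in control 1 to 4 (blue) and knockout 1 to 4 (red), with the library number at each point, the group mean as a horizontal line and the SD as a vertical line (n = 4). Control 4 is the lowest point in every panel but that of Tagln2, and in each panel knockout 2 lies below the highest control.

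The actins come first. Acta2, the actin of smooth muscle and myofibroblasts (ENSMUSG00000035783, GRCm38 chromosome 19, 34241090 to 34255336, minus strand, a protein-coding gene), stood at 726.39, 417.22, 519.89 and 98.40 FPKM across control 1 to 4. It read 1745.55, 560.69, 1125.66 and 745.00 FPKM across knockout 1 to 4. Knockout 1 and 3 lay well above every control, knockout 4 just above control 1, and knockout 2 between control 3 and control 1. The means were 440.5 ± 262 and 1044 ± 523 FPKM (SD, n = 4), a ratio of 2.37, with a log2 difference of 1.43 (SE 0.61, limma adjusted p = 0.246). Without control 4 the ratio was 1.88 and the log2 difference 0.82 (limma adjusted p = 0.433). Acta2 was among the most abundant transcripts of these cultures, at rank 10 of all genes in knockout 1 and rank 27 in control 1, but at rank 359 in control 4.

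Actg2, the enteric form of smooth muscle actin (ENSMUSG00000059430, chromosome 6, 83512905 to 83536265), did not follow Acta2. It read 19.64, 3.43, 7.23 and 2.15 FPKM across control 1 to 4 and 4.43, 2.58, 25.48 and 10.47 FPKM across knockout 1 to 4. Knockout 1, the highest library for Acta2, lay below control 3 and control 1 for Actg2. The log2 difference of 0.33 (SE 0.70, limma adjusted p = 0.802) turned to -0.05 without control 4 and to -0.66 without knockout 3 and 4, and was 1.32 in the male libraries alone. It was 0.09 once a trend on gene length was removed from each library. The actin genes encode nearly identical proteins, and the handling of reads shared between them was a step not given in the sources used here, so the low values of Actg2 beside its abundant relatives are uncertain.

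As a share of the summed FPKM of Acta2, Actg2, Acta1, Actb and Actg1, the level of Acta2 made up 28.1%, 17.7%, 18.0% and 6.96% in control 1 to 4. The same share was 34.6%, 25.5%, 23.1% and 22.9% in knockout 1 to 4. Control 1 lay above 3 of the 4 knockouts, and the other controls below all of them. The cytoplasmic actins Actb and Actg1, which every cell uses, were themselves at 968 ± 237 against 1428 ± 407 FPKM and at 857 ± 162 against 1254 ± 457 FPKM (SD, n = 4; limma adjusted p above the threshold for both). The level of Acta2 was 0.150 to 0.751 of that of Actb in the controls and 0.594 to 0.959 in the knockouts.

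The next genes encode proteins that decorate the filament in smooth muscle. Cnn1, basic calponin, which restrains the ATPase of actin-bound myosin (ENSMUSG00000001349, chromosome 9, 22099216 to 22109630), read 47.11, 34.07, 41.29 and 13.24 FPKM across control 1 to 4. It read 86.13, 43.41, 72.92 and 63.14 FPKM across knockout 1 to 4. Only knockout 2 fell within the controls, below control 1. The log2 difference was 1.04 (SE 0.38, limma adjusted p = 0.206, the lowest of the 10), and 0.66 without control 4 (limma adjusted p = 0.335).

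Tagln, transgelin or SM22-alpha, an actin-bundling protein of smooth muscle (ENSMUSG00000032085, chromosome 9, 45929619 to 45936058), was the scarcest of the 10. It read 5.13, 2.57, 2.75 and 0.38 FPKM across control 1 to 4, which stands for 176, 87, 97 and 13 reads. It read 12.46, 2.59, 5.61 and 4.99 FPKM across knockout 1 to 4, or 456, 92, 209 and 180 reads. Knockout 1 stood above all other libraries, knockout 3 just above control 1, and knockout 2 level with control 2. The log2 difference was 1.02 (SE 0.49, limma adjusted p = 0.288), and 0.61 without control 4. On this scale the change of so low a gene is understated: with a pseudocount of 0.1 it was 1.42.

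Acta2 stood 140.1 to 260.9 times above Tagln per length in the 8 libraries, although the pair is commonly used together as smooth muscle markers. Exons of Tagln share bases with Gm48529, an antisense transcript, and with Pcsk7, both on the opposite strand, and the use of strand in counting was likewise not given in the sources used here. Gm48529 was at 0.23 to 0.51 FPKM in the controls and 1.93, 0.48, 0.23 and 0.35 FPKM across knockout 1 to 4, so it too was highest in knockout 1. Its part in the low level of Tagln was not tested.

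Myl9, the regulatory light chain whose phosphorylation switches on smooth muscle and non-muscle myosin II (ENSMUSG00000067818, chromosome 2, 156775420 to 156781658), read 111.47, 59.62, 72.01 and 17.97 FPKM across control 1 to 4. It read 258.65, 111.16, 128.65 and 103.02 FPKM across knockout 1 to 4. Knockout 1 stood alone at the top, and control 1 lay above knockout 2 and 4. The log2 difference was 1.34 (SE 0.51, limma adjusted p = 0.220), and 0.83 without control 4. Among the regulatory light chains Myl9, Myl12a and Myl12b, Myl9 made up 4.60% to 18.0% of the summed FPKM in the controls and 12.01% to 32.8% in the knockouts. Its non-muscle relatives Myl12a and Myl12b supplied the rest in every library.

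The tropomyosins, rods that lie along the filament, were less clearly higher. Tpm1 (ENSMUSG00000032366, chromosome 9, 67022590 to 67049406) read 447.51, 424.53, 502.16 and 209.98 FPKM across control 1 to 4 and 722.36, 279.93, 604.52 and 402.66 FPKM across knockout 1 to 4. Knockout 1 and 3 lay above every control, and knockout 2 and 4 below 3 of the controls. The log2 difference was 0.32 (SE 0.38, limma adjusted p = 0.634), and 0.04 without control 4. Tpm1 makes muscle and non-muscle forms by splicing, and its FPKM sum over them.

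Tpm2, beta tropomyosin (ENSMUSG00000028464, chromosome 4, 43514711 to 43523765), read 33.72, 25.79, 38.27 and 8.01 FPKM across control 1 to 4 and 52.44, 15.85, 81.10 and 24.96 FPKM across knockout 1 to 4. Its knockouts spread on both sides of the controls. The log2 difference of Tpm2 was 0.64 (SE 0.57, limma adjusted p = 0.538), and 0.17 without control 4. Of the summed FPKM of Tpm1 to Tpm4, Tpm1 made up 44.8% ± 5.95 in the controls and 50.2% ± 6.79 in the knockouts, and Tpm4, which makes non-muscle tropomyosin, 42.9% ± 5.53 and 35.3% ± 8.67 (SD, n = 4), ranges that overlap.

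Tagln2, the widely expressed relative of transgelin (ENSMUSG00000026547, chromosome 1, 172500047 to 172507380) read 250.59, 254.43, 296.03 and 279.59 FPKM across control 1 to 4, where it was the steadiest of the 10, and 288.48, 243.12, 525.62 and 493.86 FPKM across knockout 1 to 4. Only the male knockouts 3 and 4 stood above the controls, and control 4 was not low. The log2 difference was 0.45 (SE 0.28, limma adjusted p = 0.390). It was 0.46 without control 4, 0.92 in the male libraries alone (limma adjusted p = 0.00452, in a comparison that 44.4% of all genes passed) and -0.03 without knockout 3 and 4.

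Cnn2, the non-muscle calponin (ENSMUSG00000004665, chromosome 10, 79988584 to 79996062), read 155.02, 161.56, 209.31 and 74.24 FPKM across control 1 to 4 and 257.44, 141.80, 447.85 and 266.50 FPKM across knockout 1 to 4. Knockout 1, 3 and 4 lay above every control and knockout 2 below 3 of them. The log2 difference of 0.87 (SE 0.40, limma adjusted p = 0.273) was 0.56 without control 4 and 0.44 without knockout 3 and 4. In the male libraries alone Cnn2 was at 1.29 (limma adjusted p = 0.0473), so 2 of the 10 genes passed there, Tagln2 and Cnn2.

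Cald1, caldesmon, which blocks myosin from actin until it is released by calmodulin (ENSMUSG00000029761, chromosome 6, 34598500 to 34775473), read 134.49, 107.70, 120.85 and 54.18 FPKM across control 1 to 4. It read 220.65, 99.99, 91.89 and 73.78 FPKM across knockout 1 to 4. Knockout 1 alone lay above the controls, and the other knockouts lay below control 1, 2 and 3. The log2 difference of 0.16 (SE 0.38, limma adjusted p = 0.822) turned to -0.12 without control 4, to -0.17 without knockout 1 and to -0.26 in the male libraries alone. Cald1 is the longest of the 10, with 12041 bp of exon against a median of 3956 bp over all genes, and with the trend on gene length removed its difference was 0.61. Tpm1, also longer than that median, moved up to 0.53. The 8 genes shorter than the median all moved down, among them Acta2 to 1.25, Tagln to 0.82, Cnn2 to 0.72 and Tagln2 to 0.25.

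**Figure D2:**
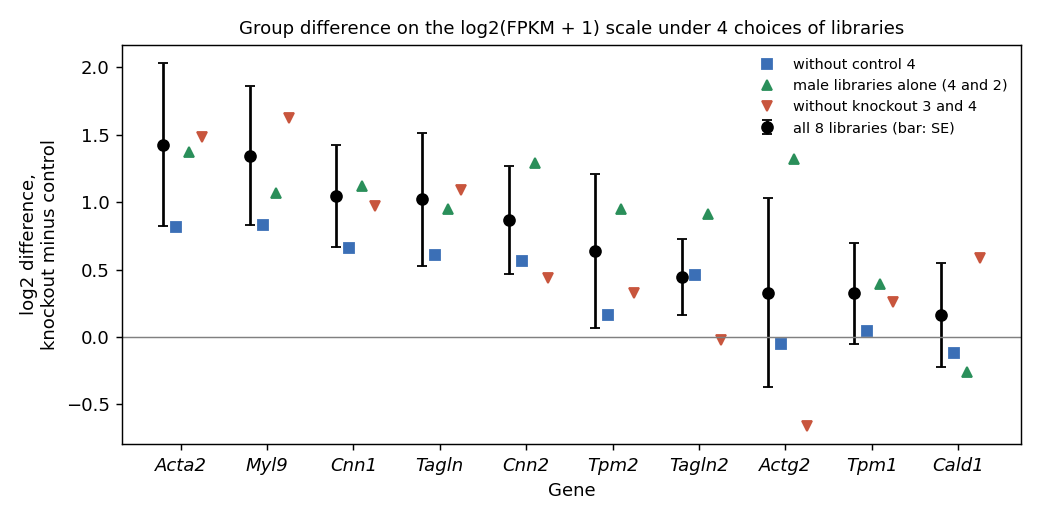
Log2 difference of each gene (knockout minus control, log2(FPKM + 1) scale) over all 8 libraries with its SE (black), without control 4 (blue squares), in the male libraries alone (green triangles) and without knockout 3 and 4 (red triangles). Without control 4 the differences of Acta2, Myl9, Cnn1 and Tagln shrink to between 0.61 and 0.83, and Actg2, Cald1 and Tagln2 have values on both sides of 0.

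The authors' deposited table marks 3 of the 10 genes as up, with log2 fold changes of 1.36 for Acta2, 1.30 for Myl9 and 1.09 for Cnn1. Their adjusted p-values in the authors' deposited table are 0.684, 0.652 and 0.481, and 0 of the 10 genes has an adjusted p below 0.05 there.

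The order of levels per length was led by Acta2 in every knockout and in control 1 and 3, and by Tpm1 or Tagln2 elsewhere. Over the 8 libraries Acta2 averaged 742.35, Tpm1 449.21, Tagln2 328.96 and Cnn2 214.22 FPKM, and Cald1 and Myl9 followed at 112.94 and 107.82 FPKM. Acta2 lay above Tpm1 in 6 of 8 libraries, and Tpm1 above Tagln2 in 6 of 8. The order of Cald1 and Myl9 changed with the group: Cald1 was above Myl9 in 4 of 4 controls and below it in 4 of 4 knockouts. Cald1 is the longest of the 10 and Myl9 the shortest, with 12041 and 1162 bp of exon. With the trend on gene length removed, their log2 differences moved from 0.16 to 0.61 for Cald1 and from 1.34 to 1.10 for Myl9. The part of gene length in this change of order was not tested. Below Cald1 and Myl9 came Cnn1 at 50.16, Tpm2 at 35.02, Actg2 at 9.43 and Tagln at 4.56 FPKM. Together the 10 genes made up 0.727%, 0.554%, 0.651% and 0.271% of all FPKM across control 1 to 4 and 1.18%, 0.545%, 0.969% and 0.708% in knockout 1 to 4, so knockout 2 lay below 3 of the controls.

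**Figure D3:**
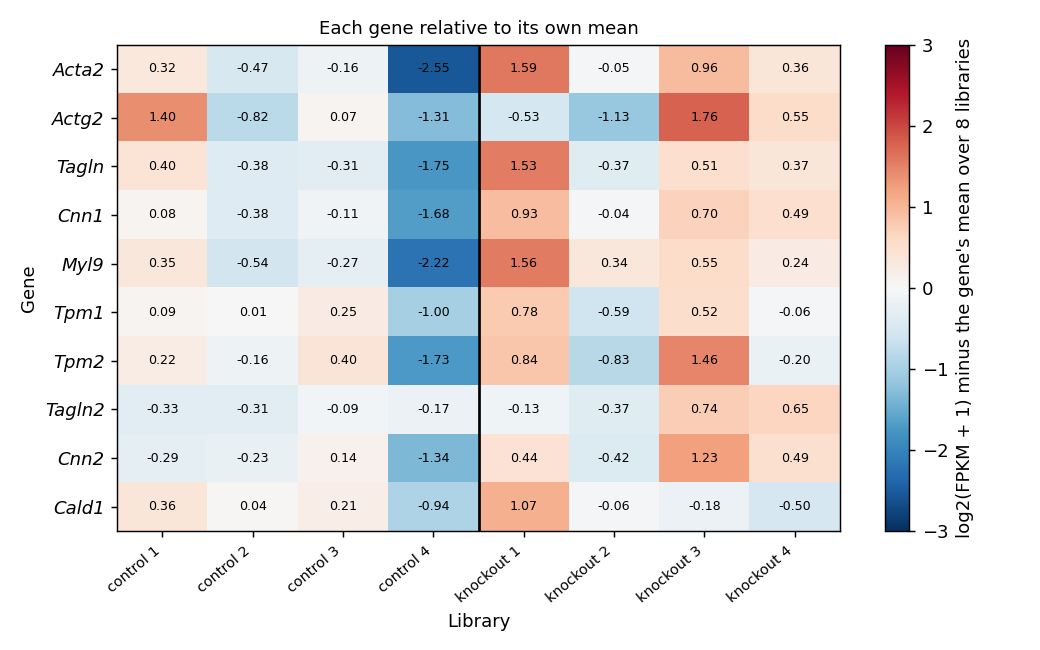
Level of each gene (rows) in each library (columns) as log2(FPKM + 1) minus the gene's mean over the 8 libraries, red above and blue below. Control 4 is the lowest library in every row but that of Tagln2, knockout 1 is high for Acta2 (1.59), Myl9 and Tagln, and knockout 3 is high for Actg2 (1.76), Tpm2, Cnn2 and Tagln2.

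The genes differed in how closely they tracked Acta2 from library to library. Pearson's r of log2(FPKM + 1) with Acta2 over the 8 libraries was 0.99 for Cnn1, 0.98 for Myl9 and 0.97 for Tagln, which placed them at ranks 1, 2 and 4 among 12069 genes with a mean of at least 1 FPKM. With each group's mean removed r was 0.99, 0.97 and 0.96, and without control 4 it was 0.96, 0.94 and 0.96, so the likeness was also present among the libraries of a group. Tpm1 (0.87), Tpm2 (0.86), Cnn2 (0.84) and Cald1 (0.75) came lower, and at 0.73, 0.68, 0.64 and 0.51 without control 4. With each group's mean removed these genes stood at 0.92, 0.87, 0.74 and 0.85. Within the knockouts alone Tpm1 was at 0.98, above Tagln (0.96), Cnn1 (0.95) and Myl9 (0.89). Within the controls alone Tpm1 was at 0.96, below Tagln (0.99), Cnn1 (1.00) and Myl9 (1.00). Actg2 stood at 0.54 and Tagln2 at 0.33. These are descriptions over libraries that share their group, depth and culture, with n = 8.

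The 5 other genes most like Acta2 by this measure were Lmod1, Ifngr2, Gadd45g, Fhl2 and Cers5, with r of 0.98 to 0.96. Lmod1, leiomodin, which nucleates actin filaments in smooth muscle, read 6.83, 3.18, 4.08 and 0.69 FPKM across control 1 to 4 and 11.32, 5.83, 11.36 and 6.85 FPKM across knockout 1 to 4 (log2 difference 1.22, SE 0.43, limma adjusted p = 0.200). Its order of libraries was close to that of Acta2, with control 4 lowest. Fhl2, a LIM-domain protein that binds SRF, was at 64.7 ± 14.1 against 91.0 ± 16.0 FPKM. Gadd45g, a growth arrest gene, was at 59.5 ± 26.7 against 102 ± 42.9 FPKM, and Ifngr2, an interferon gamma receptor chain, at 31.8 ± 5.12 against 39.9 ± 5.70 FPKM (SD, n = 4). Cers5, a ceramide synthase, was at 16.3 ± 3.69 against 24.1 ± 4.72 FPKM, and none of the 5 passed the adjusted limma threshold.

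Other genes of the actin and myosin apparatus were read together with those of SRF and the TGF-beta pathway. Of 94 symbols listed in all, 85 were measured, 50 with a higher and 35 with a lower mean in the knockouts (median log2 difference 0.10). The 94 count Mkl1, Mkl2 and Ctgf again under their other symbols Mrtfa, Mrtfb and Ccn2, which had no row of their own. At the adjusted limma threshold 0 passed, and 8 higher and 11 lower genes had an unadjusted p below 0.05, beside 7.58% and 11.6% of all genes. Groups did not overlap for 10 of the 85, near the 11.6% over all genes, so genes without overlap named below do not set these lists apart. Among thin filament genes 6 of 8 were higher (median 0.41), with Lmod1 above and the filament capper Tmod3 lowest in knockout 3, at 9.17 FPKM. Actin turnover genes were higher in 12 of 16 cases (median 0.20). The capping subunit Capzb was at 114 ± 7.94 against 179.6 ± 27.7 FPKM with no overlap of groups, and cofilin (Cfl1), which severs filaments, at 351 ± 61.5 against 551 ± 156 FPKM. Pfn1, profilin, which feeds monomers to growing filaments, was at 214 ± 41.3 against 355 ± 135 FPKM (SD, n = 4).

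Myosin II and its regulators split evenly, 9 higher and 9 lower of 18 (median -0.04), and groups did not overlap for 4, beside 11.6% of all genes. Myh10, non-muscle myosin heavy chain IIB, read 23.74, 25.41, 23.99 and 17.88 FPKM across control 1 to 4 and 11.40, 15.60, 13.73 and 12.26 FPKM across knockout 1 to 4, so every knockout lay below every control (log2 difference -0.73, SE 0.17, limma adjusted p = 0.124). Myl6, the essential light chain, went the other way at 94.9 ± 19.4 against 167 ± 48.1 FPKM (SD, n = 4). Focal adhesion and stress fibre genes were higher in 15 of 23 cases (median 0.15), but those of lowest p were lower in the knockouts. Lima1, an actin cross-linker, was at 31.5 ± 4.70 against 20.1 ± 5.06 FPKM, and Lpp, a zyxin relative, at 46.3 ± 4.96 against 22.4 ± 13.6 FPKM (SD, n = 4).

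Transcripts of the regulators themselves shared no direction. Srf was at 18.15, 17.59, 19.74 and 13.91 FPKM across control 1 to 4 and 10.64, 16.26, 25.23 and 21.79 FPKM across knockout 1 to 4. Knockout 1, with the most Acta2, thus had the least Srf. Of its cofactors, Mkl1 was lowest in the same library at 6.41 FPKM, and Mkl2 was at 11.9 ± 0.910 against 7.80 ± 2.85 FPKM (SD, n = 4; limma adjusted p = 0.207). In the SRF list 3 of 8 were higher (median -0.18). Among them the LIM-domain gene Fhl1 was at 43.35 to 65.06 FPKM in the controls. It read 214.05, 119.54, 62.43 and 75.90 FPKM across knockout 1 to 4, so knockout 3 lay within the controls. The activity of these factors is set largely after transcription and was not measured.

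Among ligands, receptors and Smads of the TGF-beta pathway, a textbook inducer of Acta2, 5 of 12 were higher (median -0.32). Smad2, a signal transducer of the pathway, read 36.09, 39.16, 33.94 and 28.89 FPKM across control 1 to 4 and 21.65, 23.73, 15.32 and 17.23 FPKM across knockout 1 to 4, with no overlap (log2 difference -0.81, SE 0.18, limma adjusted p = 0.117). Smad4, the shared partner, was at 42.7 ± 1.91 against 30.7 ± 6.87 FPKM (SD, n = 4), also with no overlap. These were the 2 of 12 without overlap, beside 11.6% of all genes.

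Markers of smooth muscle, stroma and other cells were read beside these values. Of 9 smooth muscle markers 7 were measured, 5 higher and 2 lower, but the list overlaps the 10 genes and its summed level is mostly Acta2. The defining heavy chain Myh11 was near 0, at 0.43 to 1.02 FPKM in the controls and 0.10 to 0.38 FPKM in the knockouts, so it was lower in the group with the higher mean of Acta2. Myocd and Synpo2 were listed but had no row under those symbols. Desmin (Des), an intermediate filament of muscle, was at 5.88 to 15.81 FPKM in the controls and 2.38 to 18.16 FPKM in the knockouts.

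Fibroblast and pericyte markers mostly had lower means in the knockouts. Of 15 listed 10 were measured, 2 higher and 8 lower (median -0.86), and their summed level was 59.85 to 545.1 FPKM in the controls and 76.13 to 117.2 FPKM in the knockouts. Col1a1, fibrillar collagen, read 283.23, 39.63, 48.68 and 21.64 FPKM across control 1 to 4 and 13.92, 22.18, 28.09 and 25.60 FPKM across knockout 1 to 4. Knockout 1 thus had the most Acta2 and the least Col1a1. Within the controls the pair ran together, control 1 being highest and control 4 lowest for both. Pdgfrb, the PDGF receptor of pericytes, was at 17.25 FPKM in control 1, at 3.62 to 5.41 FPKM in the other controls and at 0.65 to 2.62 FPKM in the knockouts. Col1a2, the partner chain of Col1a1, was at 123.74 FPKM in control 1 and at no more than 8.47 FPKM elsewhere. Pdgfra, Dcn and Lum were listed but likewise had no row. Mcam, which pericytes share with other cells, was at 15.73 FPKM in control 4 and 59.78 to 70.13 FPKM in the other controls.

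Of the tubular epithelial markers all 12 were measured, 6 higher and 6 lower (median -0.03), with a summed level of 1539.12 to 3276.89 FPKM in the controls and 971.72 to 6670.51 FPKM in the knockouts. The keratin Krt8 ran from 469.01 FPKM in control 4 to 1459.87 FPKM in the controls and from 266.88 to 3553.02 FPKM in the knockouts, and Krt18 and Krt19 followed it closely. These keratins carried much of the summed level. Cdh1, E-cadherin of epithelial junctions, was at 107.82 to 209.78 FPKM in the controls and 30.10 to 155.82 FPKM in the knockouts, lowest in knockout 2 and 1. Epcam was at 132 ± 34.5 against 61.4 ± 34.3 FPKM (SD, n = 4, log2 difference -1.22, limma adjusted p = 0.177). Epcam and Cdh1 were the 2 of the 12 with an unadjusted limma p below 0.05, both lower, beside 11.6% of all genes lower. Lrp2, megalin, the endocytic receptor of the proximal tubule, was low, at 1.24 to 15.15 FPKM over the 8 libraries. Macrophage and leukocyte markers were higher in 11 of 12 cases (median 1.74), at a summed 92.34 to 1034.81 FPKM in the controls and 225.28 to 1707.48 FPKM in the knockouts, led over all libraries by Lyz2, lysozyme, with C1qa and C1qb next. Their order of libraries differed from that of Acta2, since knockout 2 was the highest for macrophage markers and the lowest knockout for Acta2. The 4 of 8 endothelial markers measured were all lower in the knockouts and summed to 5.62 to 8.36 against 1.97 to 3.83 FPKM, Eng and Esam leading. Cdh5, Kdr and Pecam1 were listed but had no row. The part of any of these cell types in the contractile gene levels was not tested.

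**Figure D4:**
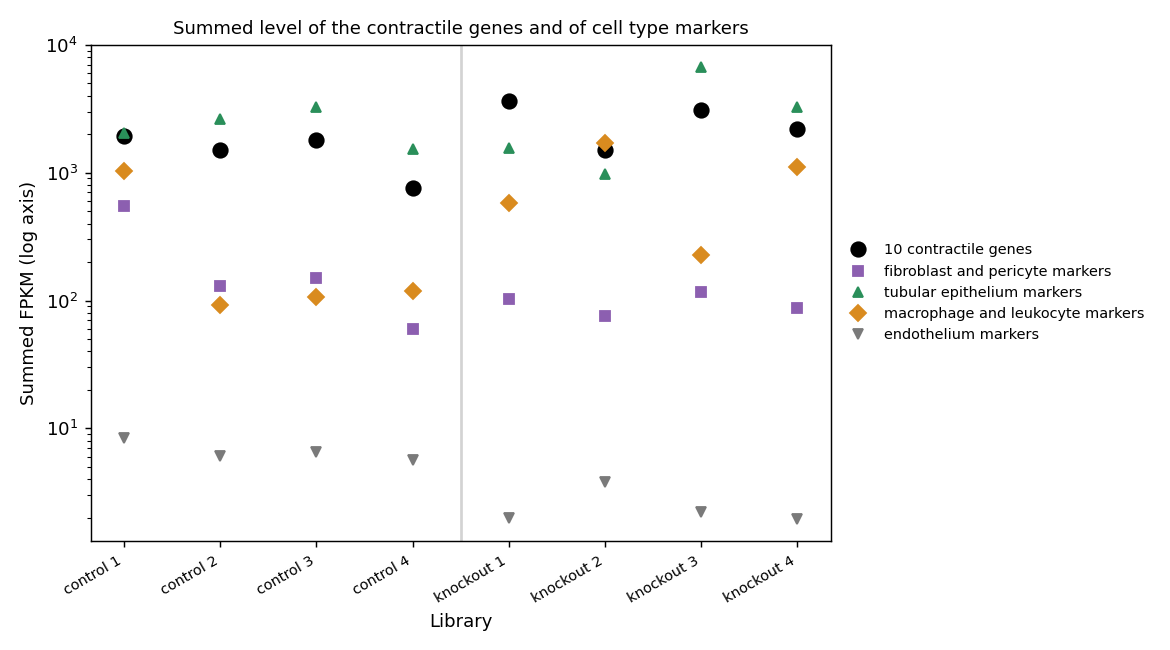
Summed FPKM (log axis) of the 10 contractile genes and of the measured fibroblast and pericyte, tubular epithelium, macrophage and leukocyte, and endothelium markers in each of the 8 libraries. The contractile genes are highest in knockout 1 and lowest in control 4, while the fibroblast and pericyte markers are highest in control 1 and the macrophage markers in knockout 2.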

How the data were processed

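The authors deposited a single table of 14145 genes with FPKM for 8 libraries, together with their log2 fold change, p-value and adjusted p-value per gene. According to the submitters' processing notes, STAR 2.4.1d, FastQC and DESeq2 were used with GRCm38, with the counter, its use of strand and the row filter not given in the sources used here. This table is named as counts, but its values carry decimals. Multiplied by exon-union lengths of GENCODE M21 (14129 genes matched), 94.9% to 95.5% of values of 1 to 200 reads lay within 0.05 of a whole number of reads, against 7.9% to 10.3% with a wrong step, so they were treated as FPKM. No column of values lacked a sample (0 columns).

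Titles gave the groups, since the genotype labels of the knockouts run on from ALDH2 to ALDH5. Levels as log2(FPKM + 1) were tested with limma 3.58.1 (R 4.3.3), with a variance trend, genotype as the only term and no filter, on all genes. The test was also run on simulated data with independent noise in each gene. That noise holds neither the outlying libraries nor the sex imbalance of these data, so the check does not cover them. All 10 genes also passed the alternative filter on low values (1 FPKM or more in 4 libraries or more). The members, lists and named genes (all members, in each related list the 2 genes of lowest p, Srf, Mkl1, Mkl2, Actb, Actg1, Myh11, leading and defining cell type markers, and the 5 genes most like Acta2) were chosen with earlier results of these data known. Genes named outside that rule (Cfl1, Gm48529, Pcsk7, Acta1, Tpm4, Myl12a and Myl12b) were chosen after their values were seen. Same-numbered libraries deviated together for number 3 but not for numbers 1, 2 and 4, so the numbers were not taken as pairs. Other steps used pandas 2.3.3 and numpy 2.4.6 in Python 3.11.15.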

Additional observations from a re-analysis of the deposited data

Results flagged for a closer look

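Myl9 in knockout 1, at 258.65 FPKM, lay far from the other knockouts: its gap to the next was 0.835 of the range of the 4 knockouts, above the critical value of Dixon's test for groups of 4. It was 1 of 20 groups examined (10 genes in 2 groups), and chance alone gives about 1 in 20. Knockout 1 was also the highest library for Acta2, Tagln, Cnn1, Tpm1 and Cald1.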

How the results depend on the processing

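Of 19 alternatives to the limma comparison, 16 left 0 of the 10 genes past the threshold. As both female libraries are knockouts, the sex covariate and the male libraries alone give the same log2 difference for each gene and are not separate checks. With a sex covariate 1 passed, in the male libraries alone 2, and under limma-voom with sample weights 3, settings in which 34.2%, 44.4% and 53.1% of all genes passed. Those weights ran from 0.149 for knockout 1 to 4.956 for control 2. Of the 85 related genes measured, 30, 42 and 48 passed under the same settings, and 0 to 7 when single libraries were left out. Acta2, Myl9, Cnn1, Tagln, Cnn2 and Tpm2 kept their sign under all 19, with Acta2 between 0.82 and 1.77. Cald1 turned to -0.26 with the sex covariate and in the male libraries, and to -0.46 with sample weights, where Tpm1 turned to -0.023. Without knockout 3 and 4 Tagln2 was at -0.025 and Actg2 at -0.66. Leaving out single libraries gave -0.20 to 0.85 for Actg2 and -0.17 to 0.36 for Cald1. The cause of these turns was not tested. The replicate numbers did not pair the libraries (r of deviations 0.05, -0.21, 0.60 and -0.05 for numbers 1 to 4, and 1 of 4 controls most like its own number), and with the replicate block 0 of the 10 genes passed and Acta2 stayed at 1.43. Depth limits Tagln most, at 13 reads in control 4.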

Other observations

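Acta1, the skeletal muscle alpha actin, was also measured and was chosen here after its values were seen. It read 13.87, 48.01, 80.18 and 2.55 FPKM across control 1 to 4 and 103.53, 22.09, 236.00 and 50.50 FPKM across knockout 1 to 4 (log2 difference 1.78, SE 0.98). Control 4 was again the lowest library, but knockout 3 rather than knockout 1 was the highest, as for Tpm2, Cnn2, Tagln2 and Actg2. Reads shared with the other actins make its level uncertain. Tagln2 stood 741.4 times above Tagln in control 4 and 23.16 times above it in knockout 1, and 48.88 to 107.7 times in the other libraries.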
